A study of Homo sapiens with 3 samples.

Results

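ESRP1, ZEB1, VIM and AXL are genes that mark the 2 ends of the epithelial-mesenchymal switch, and they were followed here through 3 subpopulations of MCF10A, an immortalised line of human mammary epithelial cells that is not tumorigenic. They were chosen by name, with earlier results of these data known. They make up 4 of the 110 genes of a NanoString nCounter panel. In it each target RNA is bound by a probe with a coloured barcode, and the barcodes are counted one by one without amplification. The labels name the subpopulations stem, basal and luminal and give 1 library of total RNA for each, all of the same line with no treatment named. They do not say how the cells were separated, and the extraction kit they name is one made for fixed, paraffin-embedded tissue. With 1 library per subpopulation the spread between samples is unknown, so no test between subpopulations was possible and no p-value is given. The intervals below are exact 95% intervals that cover counting error only.

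Epithelial cells can lose their junctions and gain a mesenchymal, motile state, and can return from it. ESRP1, an RNA-binding protein of epithelial cells, directs the splicing of transcripts such as those of FGFR2 and CD44 towards their epithelial isoforms. ZEB1, a zinc-finger transcription factor, represses epithelial genes, ESRP1 among them, while VIM encodes vimentin, the intermediate filament of mesenchymal cells, and AXL encodes a receptor tyrosine kinase that binds GAS6 and is often high in mesenchymal-like breast cells. In the mammary gland, Slug, the transcription factor in the title of the study, belongs to the same family of repressors as Snail and binds E-box motifs in DNA, as ZEB1 does. Basal mammary cells are known to express more of some mesenchymal genes, vimentin included, than luminal cells do.

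The promoter sequences of VIM and AXL are shown because both genes are mesenchymal markers and because ZEB1 and Slug bind the E-box CACCTG, which reads CAGGTG on the other strand. Each run is the 250 bases before the annotated gene start in RefSeq annotation of GRCh38.p14, on the plus strand, with any such E-box in capitals. The VIM window lies at chr10:17227991-17228240 and the AXL window at chr19:41218973-41219222, the first of 2 annotated AXL starts.
VIM: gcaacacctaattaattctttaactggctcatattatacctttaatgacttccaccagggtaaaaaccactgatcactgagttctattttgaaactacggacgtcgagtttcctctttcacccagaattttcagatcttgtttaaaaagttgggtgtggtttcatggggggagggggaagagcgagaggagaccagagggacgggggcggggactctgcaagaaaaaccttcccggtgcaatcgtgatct
AXL: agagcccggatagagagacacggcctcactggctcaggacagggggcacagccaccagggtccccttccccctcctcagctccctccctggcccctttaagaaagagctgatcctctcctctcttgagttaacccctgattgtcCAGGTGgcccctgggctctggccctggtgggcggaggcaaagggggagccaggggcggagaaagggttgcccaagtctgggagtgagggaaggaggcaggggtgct
The AXL window held 1 such E-box, which starts 106 bases before the gene start, and the VIM window held 0. Of the 2 AXL windows, the one not shown held none. Of 35116 promoter windows of the same length, 17.5% held the motif on either strand. ZEB1 itself has 7 annotated windows, of which 2 held it. These are matches of letters, and no binding was measured here.

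The libraries differed widely in depth. The 110 genes summed to 792367 counts in the stem, 8891 in the basal and 9136 in the luminal library. A normalised count is the raw count per 100 of the geometric mean of 5 housekeeping genes in the same library. Background, the mean plus 2 SD of 8 negative control probes, lay at 18.9 counts in stem, 1 in basal and 1.83 in luminal, and all 4 genes were above it in all 3 libraries. ZEB1 cleared it by the least, at 4.50, 2 and 1.09 times background in the same order, and its 2 luminal counts equal the highest negative control probe of that library. In basal no negative control probe exceeded 1, the lowest value listed, so any gene with 2 counts lay above background there. The labels could be set against few markers. The basal keratins KRT5, KRT14 and KRT17 and the luminal keratin KRT8 had at least 342 counts in each library. They did not separate basal from luminal in 1 direction. Of the 3 basal keratins, 2, KRT14 and KRT5, were higher in basal than in luminal by more than their own counting error. For KRT5 the log2 ratio was 0.14, and its sign turned with scaling by total count or without the housekeeping gene SF3A1. KRT17 was lower, at 289 normalised counts against 387, a sign that turned with scaling by positive control probes. KRT8 was nearly equal, at 909 against 898. GATA3, ESR1 and KRT19, genes of luminal cells, were listed at 1, the lowest value of the table, in the basal and also in the luminal library. Their stem levels of 0.304, 0.187 and 0.249 normalised counts lie below what 1 count is worth in basal (0.845) or luminal (0.725). Levels as low as those in stem could thus not be seen in the 2 shallow libraries. Of the markers of fibroblasts, endothelial cells and immune cells looked for, 0 of 10 were on the panel.

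**Figure D1:**
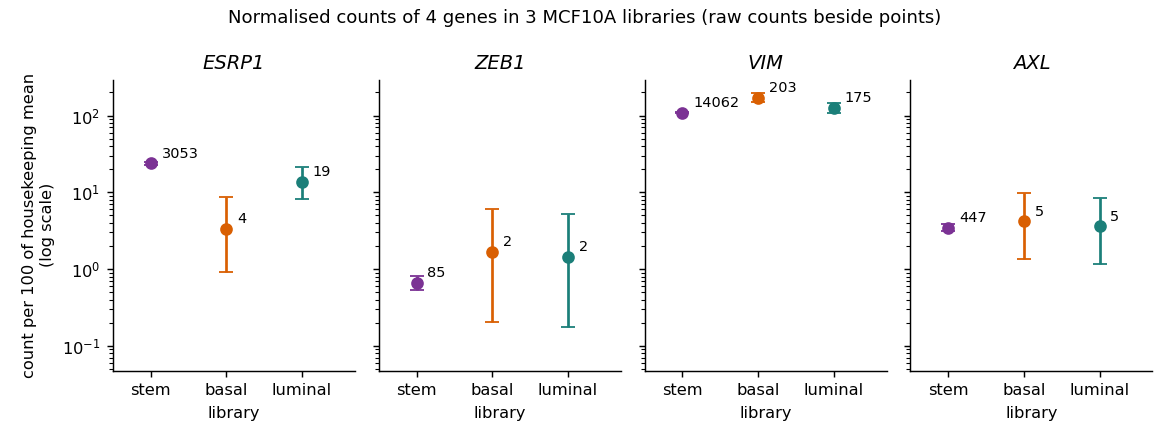
Normalised counts (count per 100 of the housekeeping mean, log axis) of ESRP1, ZEB1, VIM and AXL in the stem, basal and luminal libraries, 1 library each. Bars are exact 95% Poisson intervals and the number beside each point is the raw count. ESRP1 stands at 23.8 in stem, 3.38 in basal and 13.8 in luminal, whereas VIM is highest in basal at 171.

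ESRP1 (NM_001034915.2), the epithelial splicing regulator, had the widest spread of measured levels among the 4 genes. It had 3053 counts in stem, 4 in basal and 19 in luminal, or 23.8 (95% interval 22.9 to 24.6), 3.38 (0.921 to 8.65) and 13.8 (8.29 to 21.5) normalised counts. The stem interval lay above both others, and those of basal and luminal overlapped only narrowly. In the authors' deposited table of log2 values relative to the housekeeping genes, ESRP1 stood at -2.07 in stem, -4.89 in basal and -2.86 in luminal.

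The stem level of ESRP1 was 7.03 times the basal level (2.74 to 25.8), a log2 ratio of 2.81. Put on the scale of the basal library, the stem level corresponds to 28.1 counts where 4 were counted. Basal held 0.245 times the luminal level, a log2 ratio of -2.03 (-4.04 to -0.44). In stem over luminal ESRP1 was 1.73-fold higher (1.10 to 2.87), a log2 ratio of 0.79, and 20.2% of genes above background were likewise higher with intervals excluding 1. The order was thus stem, luminal, basal on the housekeeping scale, with each neighbouring pair apart by more than counting error but stem and luminal under 2-fold apart.

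A rule of size gives these differences a background. A gene passed it with a ratio of at least 2-fold, an interval excluding 1 and a count above background in either library, over the 105 genes other than housekeeping genes. A gene listed at 1 has an interval open on 1 side. It cannot be called lower if the 1 is in the second library of a ratio, or higher if in the first. Such genes stay in the totals of this rule and of the shares called by interval. For stem over basal 3 of 94 genes passed, or 3.19%, and ESRP1 was the only one of the 4 among them. Between basal and luminal 2 of 79 passed, or 2.53%, again with ESRP1 as the only one of the 4. Between stem and luminal 4 of 94 passed, or 4.26%, and 0 of the 4 genes did on this scale.

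The ratios depend on how the libraries are scaled to each other. Spiked positive control RNA summed to 69670 counts in stem, 776 in basal and 2795 in luminal, and scaling by all 6 of these probes adds 1.66 to every log2 ratio of stem over luminal, 0.47 to those of stem over basal and 1.19 to those of basal over luminal. On that scale 70 of 94 genes passed the rule of size for stem over luminal, and ESRP1, VIM and AXL were among them. Scaling was done in 10 ways. These were the housekeeping scale, that scale without each of its 5 genes in turn, and all 6 positive control probes. The others were positive control probes A to D, the total count, and the median of ratios over genes above background in all 3 libraries. The scales built on housekeeping genes share most of them, so agreement over 10 scales is not 10 independent checks. Over the 10 scales the ESRP1 log2 ratio of stem over basal ran between 2.60 and 3.28, and its interval lay above 0 in 10 of 10. That of basal over luminal ran between -2.26 and -0.38, below 0 in all 10 scales, with an interval below 0 in 8 and not in the 2 positive control scales. Its stem over luminal value ran between 0.59 and 2.56, with an interval above 0 in 9 of 10. Set against each housekeeping gene in turn, ESRP1 was higher in stem than in basal with an interval excluding 1 for 5 of 5 genes, by log2 values between 2.15 and 3.66. In basal it was lower than in luminal for 4 of 5, the exception being SF3A1, which itself had 10 counts in basal and 22 in luminal. In stem it was higher than in luminal with an interval excluding 1 for 3 of 5. Over all 5 the log2 values ran between 0.29 and 1.24, and the intervals against MRPL19 and PSMC4 included 0.

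**Figure D2:**
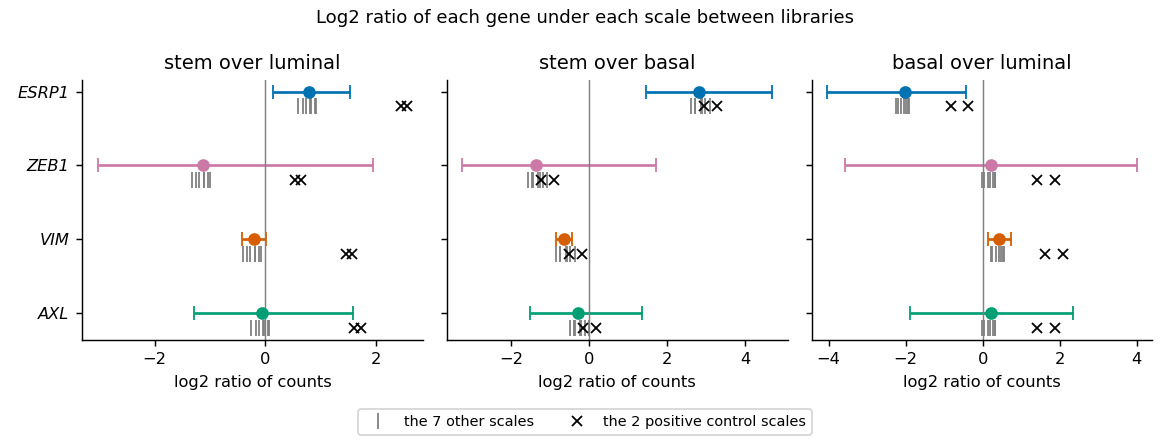
Log2 ratio of counts of each gene (rows) for stem over luminal, stem over basal and basal over luminal. Filled circles with bars are the housekeeping scale with 95% counting intervals, grey ticks the 7 other scales without positive controls, and crosses the 2 positive control scales. ESRP1 stays right of 0 for stem over basal and left of 0 for basal over luminal in every scale drawn, while VIM, AXL and ZEB1 cross 0 for stem over luminal.

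VIM (NM_003380.2), the mesenchymal filament gene, was the most deeply counted of the 4. It had 14062 counts in stem, 203 in basal and 175 in luminal, or 109 (108 to 111), 171 (149 to 197) and 127 (109 to 147) normalised counts. The basal interval lay above both others, and those of stem and luminal overlapped. As a share of all endogenous counts VIM made up 1.77% in stem (exact binomial interval 1.75 to 1.80), 2.28% in basal (1.98 to 2.62) and 1.92% in luminal (1.64 to 2.22).

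The stem level of VIM lay under the basal level, with a log2 ratio of -0.65 (-0.85 to -0.44), or 0.638-fold. Of the 94 genes above background, 11.7% were likewise lower with intervals excluding 1. Only the 74 above background in both libraries could be called lower, so this share runs low. In basal VIM was 1.35-fold higher than in luminal (1.10 to 1.66), where 12.7% of genes were higher by the same measure. For stem over luminal the log2 ratio of -0.21 had an interval that reached just above 0, at 0.01. None of these passed the 2-fold limit on the housekeeping scale. The direction of stem below basal held in 10 of 10 scales, between -0.86 and -0.18, with an interval below 0 in 9. Set against single housekeeping genes it ran between -1.31 against SF3A1 and 0.19 against RPLP0, a ribosomal protein gene, with intervals below 1 for 3 of 5. Between basal and luminal the VIM log2 ratio ran between 0.21 and 2.09, and 8 of 10 scales gave an interval above 0. Set against single housekeeping genes, that ratio ran between -0.01 and 1.35. Its interval lay above 0 for 2 of 5, ACTB and SF3A1. Both positive control scales put VIM past the 2-fold limit there, at 1.63 and 2.09, and for stem over luminal too, at 1.45 and 1.56. These scales shift every gene alike, by 1.19 and 1.65 for basal over luminal, where 43 and 55 genes then passed the rule of size. With the counting error of the housekeeping scale added, the basal over luminal interval of VIM widened to 0.02 to 0.86.

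AXL (NM_001699.4), the receptor, was counted at similar normalised levels in the 3 libraries. It had 447 counts in stem, 5 in basal and 5 in luminal, or 3.48 (3.16 to 3.82), 4.22 (1.37 to 9.86) and 3.62 (1.18 to 8.46) normalised counts. All 3 intervals overlapped. The ratio was 0.960 for stem over luminal (0.408 to 2.97), 0.824 for stem over basal (0.350 to 2.55) and 1.17 for basal over luminal (0.268 to 5.07). Each of these intervals includes a 2-fold difference in either direction, so at 5 counts neither a change nor equal levels could be shown. On both positive control scales the stem over luminal interval of AXL lay above 0, with log2 ratios of 1.60 and 1.71. Those scales add 1.66 and 1.77 to the stem over luminal log2 ratio of every gene, so this shift is not particular to AXL. The ligands GAS6 and PROS1 and the related receptors TYRO3 and MERTK were looked for, and 0 of the 4 were on the panel.

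ZEB1 (NM_001128128.1), the repressor, was barely counted. It had 85 counts in stem, 2 in basal and 2 in luminal, or 0.662 (0.529 to 0.818), 1.69 (0.205 to 6.10) and 1.45 (0.176 to 5.24) normalised counts. The stem level is known closely, but the other intervals enclose it. On the scale of the basal library the stem level corresponds to 0.783 counts, and on that of the luminal library to 0.913. Log2 ratios were -1.35 for stem over basal (-3.25 to 1.72), -1.13 for stem over luminal (-3.03 to 1.94) and 0.22 for basal over luminal (-3.56 to 4.01). No direction can be read for ZEB1 at this depth.

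The ratio between 2 genes within a library does not depend on the scale between libraries, since any scale cancels. Probes differ in efficiency, so such a ratio says nothing of which gene is more abundant, but its change between libraries can be read. There were 21.7 ESRP1 counts per 100 VIM counts in stem, 1.97 in basal and 10.9 in luminal. This ratio was highest in stem and lowest in basal. It was 11.02-fold higher in stem than in basal (4.23 to 40.9), a log2 value of 3.46. In basal over luminal it was lower, at a log2 value of -2.46 (-4.50 to -0.83). Between stem and luminal its log2 value was 0.9998 (0.31 to 1.77), higher in stem. The ratio of the epithelial splicing regulator to the vimentin gene thus differed by more than counting error in all 3 pairs of libraries.

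Against AXL, there were 683 ESRP1 counts per 100 AXL counts in stem, 80.0 in basal and 380.0 in luminal. The ratio was 8.54-fold higher in stem than in basal (1.83 to 43.1), whereas the intervals of basal over luminal (-5.05 to 0.54 on the log2 scale) and stem over luminal (-0.94 to 2.32) included 0. Against ZEB1, the ESRP1 ratio was higher in stem than in basal by a log2 value of 4.17 (0.68 to 6.99), and the other pairs had intervals that included 0. Among the 3 mesenchymal genes themselves, the ratios VIM to AXL, ZEB1 to VIM and ZEB1 to AXL had intervals that included 0 in all 3 pairs. The VIM to AXL ratio came closest to a bound, with a log2 value of -0.37 for stem over basal and an interval of -2.01 to 0.89. At these counts the mesenchymal genes could not be told apart from each other in how they differed between libraries.

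**Figure D3:**
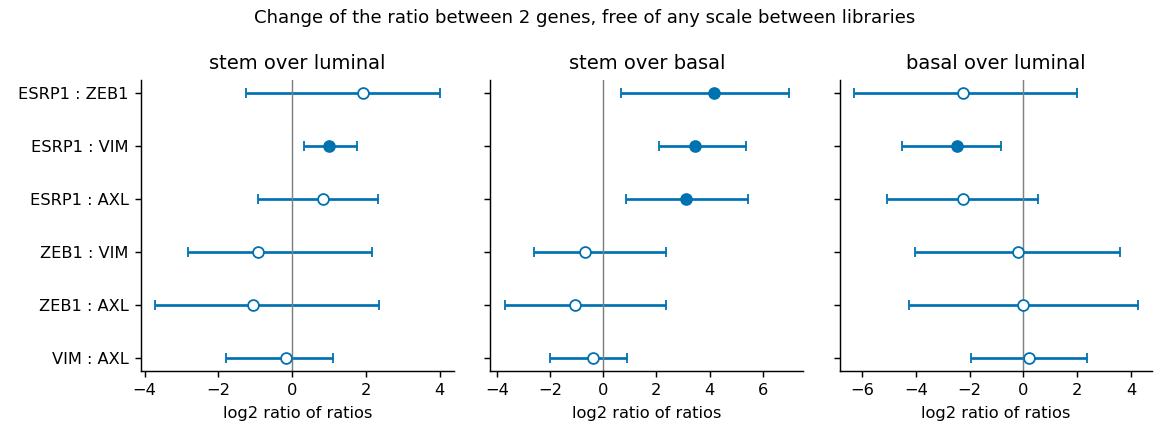
Log2 change of the ratio between 2 genes (rows) for stem over luminal, stem over basal and basal over luminal, with exact conditional 95% intervals. Filled circles have intervals that exclude 0. ESRP1 to VIM is filled in all 3 panels, at 0.9998, 3.46 and -2.46, and ratios among ZEB1, VIM and AXL are open throughout.

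The same measure places each gene among all genes of the panel. For stem over basal, ESRP1 was higher relative to 65 of the 73 other genes above background in both libraries, with intervals excluding 1, and lower relative to 0. The median over these 74 genes was 13 such differences, and no gene had more than ESRP1. Since ESRP1 was chosen with earlier results of these data known, this place describes the gene and is not independent of the choice. For basal over luminal ESRP1 was lower relative to 40 of 70 other genes, where the median gene had 3 such differences and 1 gene, CD24, had more. In stem over luminal it was higher relative to 18 of 75, with a median of 12.

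VIM, whose deeper counts narrow its intervals, differed from fewer genes than ESRP1 in both pairs with basal and from more in stem over luminal. It was lower in stem than in basal relative to 42 of 73 genes and higher relative to 0. Between stem and luminal it was lower in stem relative to 29 of 75 and higher relative to 4. Between basal and luminal it was higher in basal relative to 8 of 70. AXL and ZEB1 each differed from 1 gene for stem over basal, which was ESRP1, and from 0 in the other pairs.

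**Figure D4:**
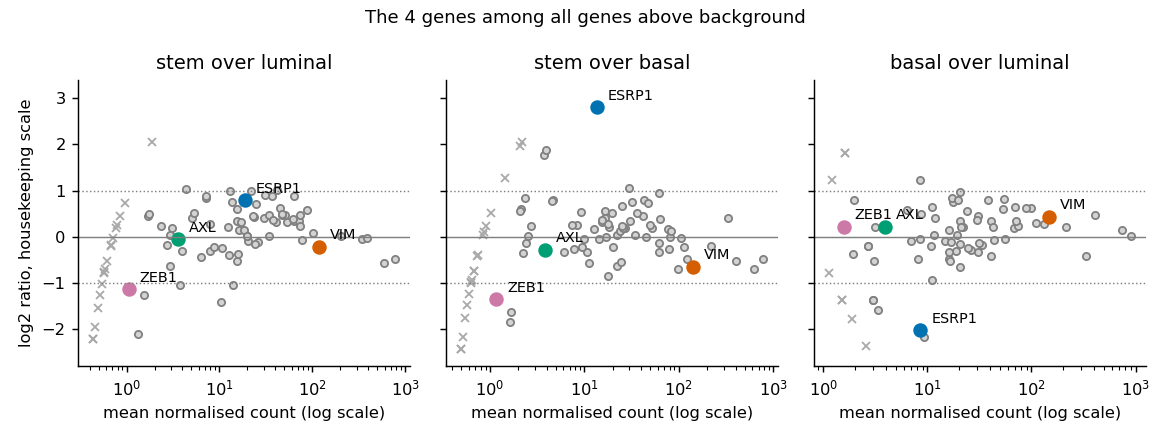
Log2 ratio on the housekeeping scale against the mean normalised count of both libraries (log axis) for all genes above background in either library, with 94, 94 and 79 genes in the panels. Grey circles are other genes, grey crosses genes listed at 1 in a library, whose ratios are not bounded on 1 side, and dotted lines mark 2-fold. ESRP1 has the highest ratio for stem over basal, at 2.81, and lies near the bottom for basal over luminal, at -2.03.

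Genes with the most similar pattern were sought by the Euclidean distance between log2 counts centred on each gene's mean over the 3 libraries, a measure free of any scale, among the 70 other genes above background in all 3. Nearest to ESRP1 were GPR160, a G protein-coupled receptor, at a distance of 0.686 and CCNE1, which encodes cyclin E1, at 0.744, against a median of 2.06. GPR160 had 793 counts in stem, 2 in basal and 6 in luminal, and CCNE1 had 743, 2 and 6. Both therefore rest on 2 basal counts. FABP5, a fatty acid binding protein, came next at 1.48. Nearest to VIM were KRT14, a keratin of basal cells, at 0.127, DDIT4, a stress-induced inhibitor of mTOR signalling, at 0.130 and CCNB1, cyclin B1, at 0.141. KRT14 had 333 normalised counts in stem, 477 in basal and 343 in luminal, and like VIM it was highest in basal. For both genes the interval of stem over luminal included no difference, so the order of those libraries cannot be read. The other basal keratins were split. On the housekeeping scale KRT5 was also highest in basal, at 775 normalised counts, whereas KRT17 was lowest there, at 289. For basal over luminal the sign held in 8 of 10 scales for KRT5 and in 8 of 10 for KRT17. Nearest to AXL were DSP, desmoplakin, at 0.0719, PTTG1 at 0.0935 and DDIT4 at 0.156. Nearest to ZEB1 were GNG11 at 0.458, KRT5 at 0.498 and ANGPTL4 at 0.609, a likeness that rests on 2 counts of ZEB1 in each of 2 libraries. With 3 libraries, many genes lie close by counting error.

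Other epithelial genes gave a mixed picture beside ESRP1. Of 41 epithelial genes looked for, 14 were on the panel. Above background in either library were 10 for stem over basal, of which 2 were higher and 2 lower with intervals excluding 1. Background over all genes was 12.8% higher and 11.7% lower. The list median was 0.34 in log2, against 0.03 over all 94 genes. The 2 higher were the junction genes F11R, which encodes the adhesion molecule JAM-A, at 0.76 (0.23 to 1.35) and JUP, plakoglobin, at 0.73 (0.29 to 1.20). The 2 lower were KRT8 at -0.49 (-0.57 to -0.40) and DSP, a desmosome protein, at -0.19 (-0.36 to -0.01), a sign that turned by total count and with all 6 positive controls. The signs of the other 3 held in 10 of 10 scales.

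Between basal and luminal, 9 of the epithelial genes were above background, with 0 higher and 1 lower by intervals, against 12.7% and 3.8% of all genes. The median was -0.29, or -0.20 over the 8 above background in both libraries, against 0.14 over all 79. The 1 lower gene was the surface glycoprotein CD24, at 4 counts in basal and 21 in luminal. EPCAM, an adhesion molecule, was listed at 1 in basal with 6 counts in luminal, and CLDN7, a claudin of tight junctions, had 2 in basal and 7 in luminal, with intervals that included no difference. KRT8 at 0.02 (-0.10 to 0.14), DSP at 0.22 (-0.03 to 0.46), F11R, JUP, SPINT1 and SPINT2 also had intervals that included no difference.

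Between stem and luminal, 10 epithelial genes were above background, with 2 higher (F11R and the protease inhibitor gene SPINT2) and 2 lower (CD24 and KRT8, whose signs turned on the 2 positive control scales), where 20.2% of all genes were higher and 4.26% lower. The median was -0.38, or -0.31 over the 9 above background in both libraries, against 0.16 over all 94. CD24 had 5.75 normalised counts in stem and 15.2 in luminal, whereas ESRP1 was higher in stem on the same scale, so these epithelial genes did not share 1 order. CLDN3, CLDN4, RAB25 and GRHL2, all genes of epithelial cells, were at or below background in all 3 libraries.

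Of 49 further mesenchymal genes, 3 were on the panel. CAV1, which encodes caveolin-1, had 71.7 normalised counts in stem, 54.9 in basal and 56.5 in luminal. Its log2 ratio was 0.39 for stem over basal (0.03 to 0.76), opposite in sign to that of VIM in 10 of 10 scales. It was 0.34 for stem over luminal (0.02 to 0.68) and -0.04 for basal over luminal (-0.54 to 0.45). Of all genes, 12.8% were higher by interval for stem over basal and 20.2% for stem over luminal. With the counting error of the housekeeping scale added, these 2 CAV1 intervals widened to -0.03 to 0.82 and -0.03 to 0.73. Both then included 0. FOXC1, a transcription factor, had 111 counts in stem, or 0.864 normalised counts, and was listed at 1 in basal and luminal, where 1 count is worth 0.845 and 0.725, so no direction can be read. MMP11, a matrix metalloproteinase, was not above background in any library. ESRP1 targets could not be followed, since 0 of 6 transcripts that it is known to splice were on the panel.

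**Figure D5:**
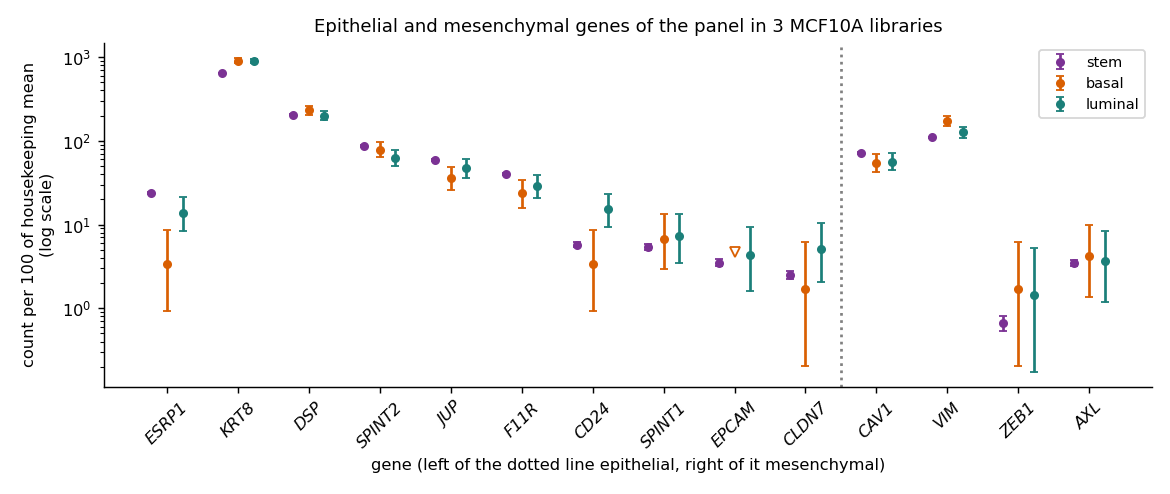
Normalised counts (log axis) of ESRP1 and the epithelial genes above background in at least 2 libraries (left of the dotted line) and of CAV1, VIM, ZEB1 and AXL (right), in stem, basal and luminal. Bars are exact 95% Poisson intervals, and the open triangle is the upper bound for EPCAM, listed at 1 in basal. The basal points of ESRP1 and CD24 stand at 3.38, below those of stem and luminal. For CD24 the stem over basal log2 ratio of 0.77 has an interval (-0.60 to 2.65) that includes 0.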

How the data were processed

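Raw barcode counts and log2 values were deposited by the authors. Counts, per the file headers, are not normalised, and their lowest listed value is 1, read as 0 or 1. The deposited log2 values were recomputed from the counts, relative to the geometric mean of SF3A1, RPLP0, PSMC4, MRPL19 and ACTB, the housekeeping genes, and differed by at most 3.53e-09. Earlier steps are not given in the sources used here.

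Counts were analysed with Python 3.11.15, numpy 2.4.6, pandas 2.3.3 and scipy 1.17.1, and figures drawn with matplotlib 3.10.9. Each ratio was scaled by the 5 housekeeping genes and has an exact interval conditional on the sum of both counts (Clopper-Pearson). Changes of a ratio between 2 genes have the exact conditional interval of the odds ratio. The depths are given with the results, and intervals were tested on simulated Poisson counts at these depths with the scale taken as known. Such data follow the model of the intervals. They check the calculation and not the spread between samples or the error of the scale. The 4 genes and the gene lists were chosen with earlier results of these data known. Named besides the 4 genes were the housekeeping genes, the 3 genes nearest to each in pattern and list members that the panel holds and that exceed background in at least 1 library. Some list members below background, the keratins, and GATA3 and ESR1, which check the labels, were also named. Of 110 probe accessions 109 matched RefSeq annotation of GRCh38.p14. No genome build was given with the counts.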

Additional observations from a re-analysis of the deposited data

How the results depend on the processing

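Of 120 values of the 4 genes' log2 ratios under another scale or with background subtracted, 108 stayed within the counting interval of the reported value. With background subtracted, the 18 changes of a ratio between 2 genes did too. Reading a listed 1 as 0, using the deposited log2 values or widening the interval leaves these values as they are by construction. For ZEB1 and AXL the intervals are so wide that staying within them shows little. The ZEB1 interval for basal over luminal ran between -3.56 and 4.01. With all 6 positive controls, log2 ratios of stem over luminal were 2.45 for ESRP1, 1.45 for VIM and 1.60 for AXL, and with probes A to D 2.56, 1.56 and 1.71. VIM for stem over basal was -0.18 with all 6, -0.36 by total count and -0.86 without RPLP0. For basal over luminal VIM was 1.63 with all 6 and 2.09 with A to D, and ESRP1 was -0.83 with all 6, inside its interval, and -0.38 with A to D. These follow from one shift of all genes.

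The number of genes past the rule of size moved more. For stem over luminal it was 4 on the housekeeping scale, 70 with either set of positive controls, 7 without MRPL19, 2 without SF3A1, without RPLP0 and by median of ratios, and 0 at a 3-fold limit. For stem over basal it was 3, against 11 with all 6 positive controls, 5 with A to D, 8 by total count, 5 without MRPL19 or SF3A1, and 1 by median of ratios and without PSMC4. For basal over luminal it was 2, against 43 with all 6 and 55 with A to D. Widening intervals by the counting error of the housekeeping scale was chosen after the data were seen and gave 4, 2 and 2. No paired analysis was possible because each subpopulation has 1 library. The depth of the basal and luminal libraries limits ESRP1, ZEB1 and AXL, with 4, 2 and 5 counts in basal.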
